A study of Mus musculus with 2 samples.

Results

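The antiviral effector genes Ifit1, Ifit2, Ifit3, Isg15, Usp18, Rsad2, Xaf1, Oasl2, Bst2 and Rtp4 were examined in mouse heart RNA sequencing data. These 10 genes were chosen by name from results of the same comparison, as transcripts known to be induced by type I interferon and higher in the CHAPIR heart. The values below therefore describe the genes and test nothing. All 10 had at least 1 transcript in the deposited table, out of 12395 genes with a listed transcript, and they held 14 of its 23178 transcripts. In the CHAPIR group, C57BL/6 mice received a mimic of the heart piRNA CHAPIR at 30 mg/kg, delivered by osmotic minipumps implanted for 14 days. In the NC group, C57BL/6 mice received a scrambled mimic as negative control in the same way, at a dose that was not stated. Both groups thus carried pumps and a mimic, and hearts without either were not analysed here. Whether a library came from a single heart or from pooled hearts was not stated, nor were the age and sex of the mice, and "heart" below stands for the library of a group. Each group held 1 library, so no spread between animals is known and no difference below has a replicate check.

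Type I interferons are secreted proteins that bind the receptor chains IFNAR1 and IFNAR2. The receptor activates the kinases JAK1 and TYK2, and signalling leads to the factor ISGF3, which contains STAT2 and IRF9. ISGF3 binds the interferon-stimulated response element (ISRE) in gene promoters and induces a large set of genes whose products block steps of virus growth. Interferon gamma signals mainly through another element (GAS) and induces many of the same genes. In the heart, interferons are known for limiting infection of cardiomyocytes by viruses.

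The promoters of the 10 genes are the first thing they can be compared by, since promoter sequence was not used to choose them, although an ISRE is a known feature of genes induced by interferon. RefSeq windows (GRCm38.p6) of 300 bases, from 250 bases before to 50 after the annotated start, were found for 8 of the genes, in 9 windows, and none was matched for Usp18 or Rtp4. The core of the ISRE was searched on both strands as GAAA, any 2 bases and GAAA, and the GAS as TTC, any 3 bases and GAA, a pattern that reads the same on both. The ISRE core was present for 5 of 8 genes, Isg15, Bst2, Ifit3, Ifit1 and Rsad2. Across the whole table of 32851 windows, 3.44% held it, as did the windows of 3.85% of genes that reached 1 FPKM in either library. A match is a description of the letters and not a measured binding site.

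Isg15 had 3 overlapping matches, between bases -78 and -57 from the start, and Bst2 had 2 overlapping ones between -130 and -115. Ifit1 had separate matches at -104 to -95 and -85 to -76, and Ifit3 at -156 to -147 and -122 to -113. Only 0.225% of all windows held 2 or more. The single match of Rsad2 lay at -120 to -111. The GAS pattern was found for Bst2, overlapping the ISRE match, and for Ifit2, at -241 to -233, against 8.30% of all windows. The windows of Xaf1, Ifit2 and Oasl2 held no ISRE core match, which says only that these letters are not in these windows.

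The stretches from base -200 to base -31 are shown for the 5 genes with a match, because the matches differ in number, strand and spacing, and for Xaf1, which had the highest ratio and no match. Each is written 5′ to 3′ on the strand of the gene, with ISRE core matches in capitals. The stretches are chr4:156200849-156201018 (minus strand) for Isg15, chr8:71537503-71537672 (minus) for Bst2, chr19:34640689-34640858 (plus) for Ifit1, chr19:34583329-34583498 (plus) for Ifit3, chr12:26456483-26456652 (minus) for Rsad2 and chr11:72301429-72301598 (plus) for Xaf1.
Isg15: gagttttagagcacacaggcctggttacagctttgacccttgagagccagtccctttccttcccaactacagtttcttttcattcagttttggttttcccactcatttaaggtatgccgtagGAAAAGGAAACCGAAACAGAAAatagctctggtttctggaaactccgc
Bst2: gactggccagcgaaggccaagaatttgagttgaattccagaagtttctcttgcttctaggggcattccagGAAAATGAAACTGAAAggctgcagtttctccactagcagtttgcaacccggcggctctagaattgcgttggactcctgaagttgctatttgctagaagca
Ifit1: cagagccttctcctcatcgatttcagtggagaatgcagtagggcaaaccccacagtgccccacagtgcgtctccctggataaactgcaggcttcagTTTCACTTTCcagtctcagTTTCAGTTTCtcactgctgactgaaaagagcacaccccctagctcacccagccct
Ifit3: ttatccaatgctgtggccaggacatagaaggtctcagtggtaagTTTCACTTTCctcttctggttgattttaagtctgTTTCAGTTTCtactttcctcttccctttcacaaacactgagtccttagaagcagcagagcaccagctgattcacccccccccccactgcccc
Rsad2: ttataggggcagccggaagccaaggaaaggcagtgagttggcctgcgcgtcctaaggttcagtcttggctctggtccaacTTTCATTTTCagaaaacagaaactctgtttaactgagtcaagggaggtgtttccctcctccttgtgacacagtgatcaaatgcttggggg
Xaf1: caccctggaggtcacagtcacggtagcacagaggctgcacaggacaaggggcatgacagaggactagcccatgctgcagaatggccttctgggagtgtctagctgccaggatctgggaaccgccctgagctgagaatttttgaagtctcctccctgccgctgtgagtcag

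**Figure D1:**
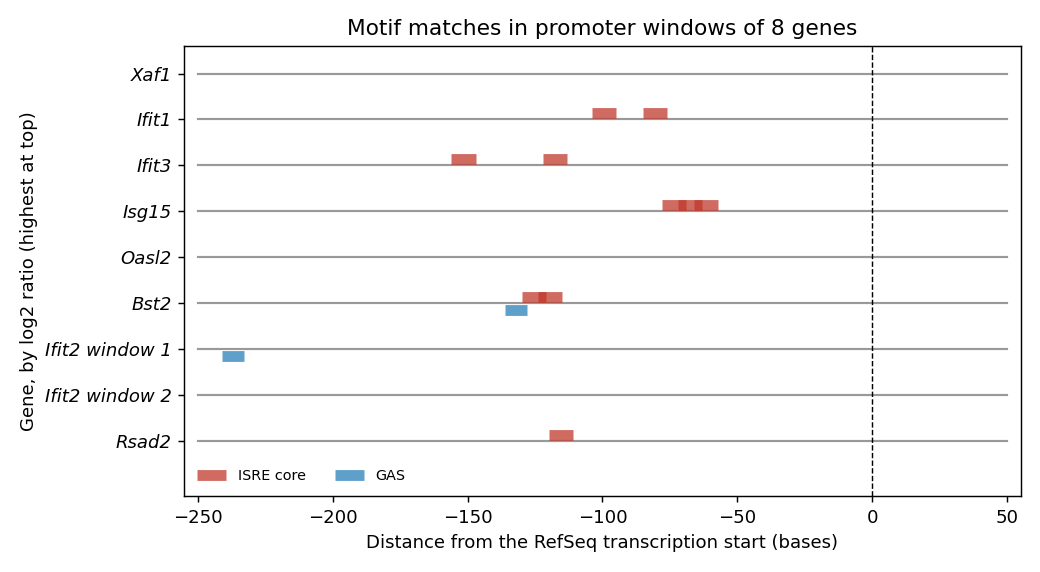
Positions of the ISRE core (red, above the line) and the GAS pattern (blue, below the line) in promoter windows of 8 genes, as distance in bases from the RefSeq transcription start (dashed line); genes run from the highest log2 ratio at the top to the lowest. All ISRE core matches lie between -156 and -57, and the rows of Xaf1, Oasl2 and Ifit2 have none.

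Facts of the whole table that bear on these genes are as follows. Values are read as FPKM, a level per length of transcript and per size of library, and this unit was inferred from the numbers. They summed to 401938 in the CHAPIR heart, against 394675 in the NC heart. The tissue label matched its markers, with all 7 cardiomyocyte markers listed and a summed level of 18379 FPKM in the CHAPIR heart, against 18997 FPKM in the NC heart. The hearts differed in apparent sex, since Ddx3y was at 21.6 FPKM and Eif2s3y at 22.1 FPKM in the CHAPIR heart, while all 4 Y-linked genes checked were listed at 0 in the NC heart. Mimic and sex cannot be told apart in these data. The log2 ratio of a gene below is log2 of the CHAPIR value plus 1 over the NC value plus 1, which understates differences of low values, and folds given beside levels are plain ratios of FPKM. Gene coordinates are those of GENCODE M21 (GRCm38). Its SD over single genes was 0.39, both for mean levels between 5 and 20 FPKM and for those between 20 and 100 FPKM, and genes are not replicates.

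All 10 genes were higher in the CHAPIR heart. By log2 ratio 9 were at least 2-fold higher and 10 at least 1.5-fold higher. Over all 11416 genes that reached 1 FPKM in either library, 2.58% were at least 2-fold higher, 1.33% at least 2-fold lower and 6.81% at least 1.5-fold higher. Since the genes were chosen on this contrast, nothing is read from these counts. The median log2 ratio of the 10 genes was 1.41, beside 0.01 over all genes. With a pseudocount of 5 in place of 1, 5 of the 10 were at least 2-fold higher.

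**Figure D2:**
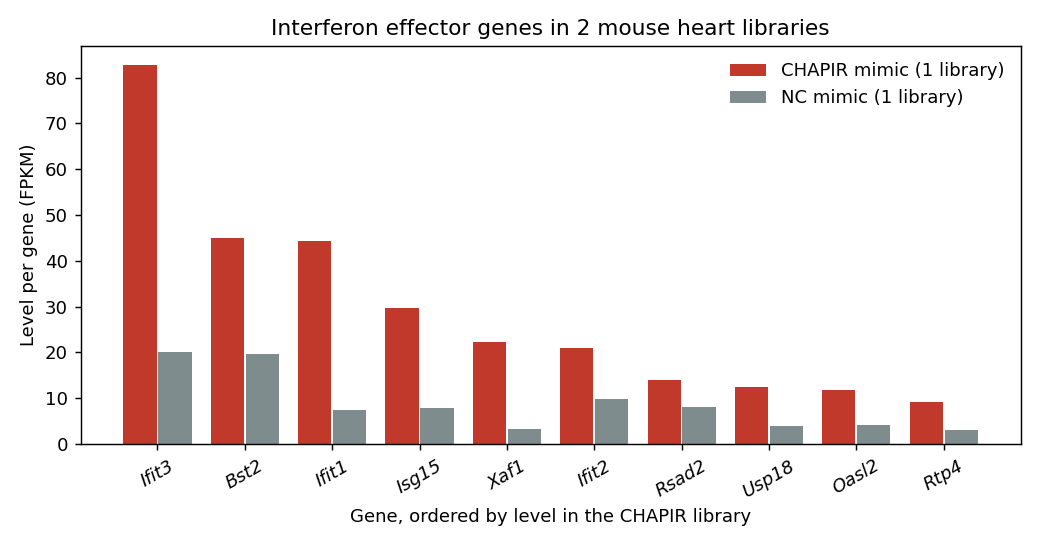
Level in FPKM of each of the 10 genes, summed over its listed transcripts, in the CHAPIR heart (red, left) and the NC heart (grey, right), with 1 library per bar and no error. Every red bar is above its grey partner, from 82.8 against 20.1 FPKM for Ifit3 down to 9.19 against 3.05 FPKM for Rtp4.

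The IFIT proteins bind foreign RNA and stop its translation, and their genes lie side by side on chromosome 19, with Ifit2 at 34550694 to 34576419, Ifit3 at 34583531 to 34588731 and Ifit1 at 34640871 to 34650009. Ifit1, which recognises RNA by the state of its cap, was at 44.4 FPKM in the CHAPIR heart, against 7.54 FPKM in the NC heart, 5.90-fold higher. Its log2 ratio of 2.41 ranked 21 of 11416 genes. Ifit3, whose human counterpart strengthens RNA binding by IFIT1, was at 82.8 FPKM in the CHAPIR heart, against 20.1 FPKM in the NC heart, 4.13-fold higher with a log2 ratio of 1.99. It was the highest of the 10 genes in both libraries, above 95.5% of the tested genes in the CHAPIR heart, against 80.8% in the NC heart. Ifit2 was at 21.0 FPKM in the CHAPIR heart, against 9.84 FPKM in the NC heart, 2.13-fold higher, and its log2 ratio of 1.02 lay just over the 2-fold line.

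The family members thus differed among themselves. Per length, Ifit1 was at 2.12 times the level of Ifit2 in the CHAPIR heart, against 0.766 times in the NC heart, so their order was opposite in the hearts. Ifit3 was at 3.95 times the level of Ifit2 in the CHAPIR heart, against 2.04 times in the NC heart. The cluster on chromosome 19 spans 99316 bases from 34550694 to 34650009 (GENCODE M21, GRCm38) and holds 6 genes in the order Ifit2, Ifit3, Ifit1bl1, Ifit3b, Ifit1bl2 and Ifit1. Ifit3b, a near copy of Ifit3, was at 32.3 FPKM in the CHAPIR heart, against 8.88 FPKM in the NC heart. Ifit1bl2 was at 2.51 FPKM in the CHAPIR heart but listed at 0 in the NC heart, while Ifit1bl1 was at 2.48 FPKM in the CHAPIR heart, against 2.91 FPKM in the NC heart.

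The copies share sequence over part of their length, where reads may not tell them apart. Of the 50-base stretches of the Ifit3 transcript, 51.2% also occur in an Ifit3b transcript, and 7.06% of those of Ifit1 occur in Ifit1bl2. How reads from shared stretches were assigned is not stated, so the single values of Ifit3 and Ifit3b are uncertain. Their sum, an alternative added after the data were seen, was 115 FPKM in the CHAPIR heart, against 28.9 FPKM in the NC heart, with a log2 ratio of 1.96. Of the stretches of Isg15, 3.96% occur in another gene, as do 5.98% of those of the Xaf1 transcript ENSMUST00000140842.8. No such stretch of Ifit2, Bst2, Oasl2, Rsad2, Usp18 or Rtp4 occurs in an annotated transcript of another gene.

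Isg15 and Usp18 act on the same modification. Isg15 encodes a ubiquitin-like protein that is attached to other proteins, and Usp18 both removes it and blocks signalling at IFNAR2. Isg15 lies on chromosome 4 (156199424 to 156200818) and was at 29.8 FPKM in the CHAPIR heart, against 7.97 FPKM in the NC heart, 3.74-fold higher with a log2 ratio of 1.78. Usp18 lies on chromosome 6 (121245906 to 121270917) and was at 12.5 FPKM in the CHAPIR heart, against 3.84 FPKM in the NC heart, 3.26-fold higher with a log2 ratio of 1.48. Isg15 was at 2.38 times the level of Usp18 in the CHAPIR heart, against 2.07 times in the NC heart.

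Of the enzymes that attach ISG15, Ube2l6, the conjugating enzyme, was at 20.6 FPKM in the CHAPIR heart, against 9.25 FPKM in the NC heart. Herc6, the main ISG15 ligase of mouse cells, was at 5.33 FPKM in the CHAPIR heart, against 2.15 FPKM in the NC heart. The ubiquitin ligase genes Trim25 and Arih1 were closer between hearts. Trim25 was at 12.4 FPKM in the CHAPIR heart, against 9.05 FPKM in the NC heart, and Arih1 at 13.7 FPKM in the CHAPIR heart, against 13.5 FPKM in the NC heart. The activating enzyme gene Uba7 had no listed transcript, so 2 of 4 measured enzymes were at least 1.5-fold higher and 0 lower. The number higher was 1 at a pseudocount of 5 and 1 with a mean of at least 5 FPKM.

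Xaf1, whose protein binds the apoptosis inhibitor XIAP, had the highest log2 ratio of the 10 genes, and a single transcript made up 76.9% of its difference in FPKM. The gene lies on chromosome 11 from 72301629 to 72313733. Its level was 22.3 FPKM in the CHAPIR heart, against 3.28 FPKM in the NC heart, 6.79-fold higher with a log2 ratio of 2.44, which ranked 20 of 11416 genes. The 4-exon transcript ENSMUST00000140842.8 was at 15.3 FPKM in the CHAPIR heart, against 0.649 FPKM in the NC heart. It made up 68.5% of the gene sum in the CHAPIR heart, against 19.8% in the NC heart. The other listed transcripts differed less. ENSMUST00000146233.7, with 6 exons, was at 3.98 FPKM in the CHAPIR heart, against 1.42 FPKM in the NC heart, and ENSMUST00000151440.7, with 3 exons, at 3.04 FPKM in the CHAPIR heart, against 1.21 FPKM in the NC heart.

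The leading Xaf1 transcript has 651 bases, and 0 of them lie outside the exons of the other annotated Xaf1 transcripts, against 1652 of 2597 for the 6-exon transcript. Its share may therefore depend on how the authors' estimation divided common reads, although splice junctions of the transcripts were not compared. Without it, an alternative added after the data were seen, Xaf1 was at 7.02 FPKM in the CHAPIR heart, against 2.63 FPKM in the NC heart, 2.67-fold higher with a log2 ratio of 1.14. With that transcript alone the log2 ratio was 3.30.

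**Figure D3:**
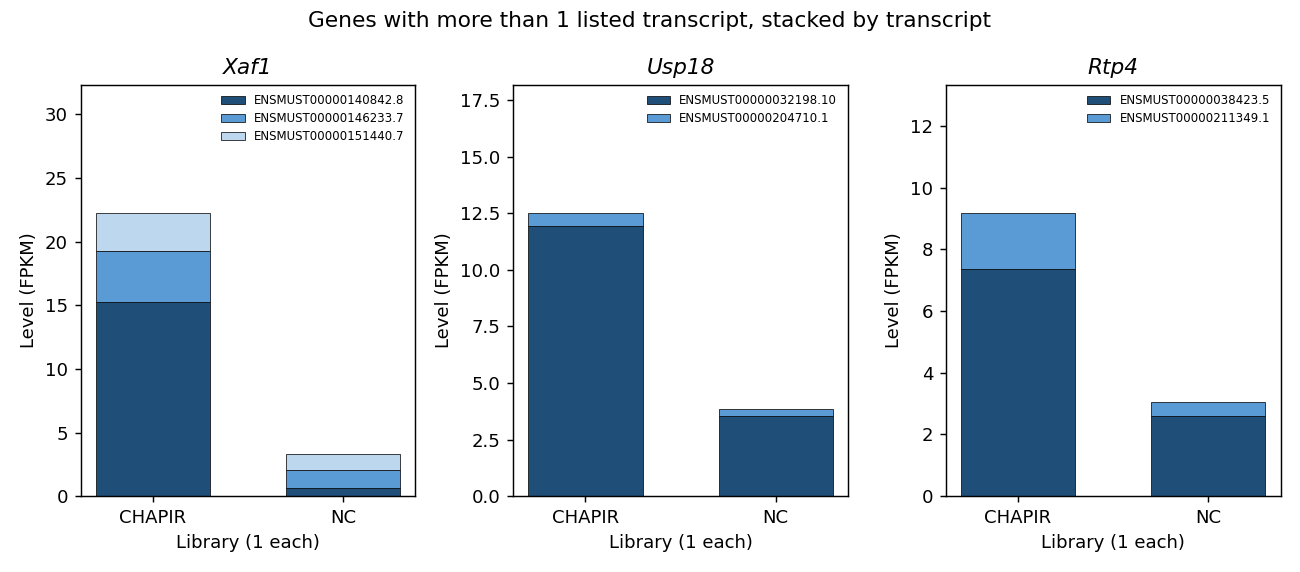
Levels in FPKM of the listed transcripts of Xaf1, Usp18 and Rtp4, stacked within each gene, in the CHAPIR heart (left bar) and the NC heart (right bar), 1 library each. The dark segment of Xaf1 is ENSMUST00000140842.8, at 15.3 FPKM in the CHAPIR heart, against 0.649 FPKM in the NC heart, while in Usp18 and Rtp4 the same transcript leads in both libraries.

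The other genes had simpler transcript patterns. Only 14 of the 33 annotated transcripts of the 10 genes were listed, and for 7 genes a single one. All 14 were higher in the CHAPIR heart, and 10 of the 13 at 1 FPKM or more were at least 2-fold higher, where 9.47% of 18413 transcripts were. The Usp18 transcript ENSMUST00000204710.1 and the Rtp4 transcript ENSMUST00000211349.1 reached 0.5 FPKM only in the CHAPIR heart, so they could only be listed as higher. The genes were chosen on this contrast and the share of all transcripts that were higher is not reported here, so nothing is read from these counts. In Usp18, ENSMUST00000032198.10 made up 95.4% of the gene sum in the CHAPIR heart, against 92.2% in the NC heart. In Rtp4, ENSMUST00000038423.5 made up 80.0% in the CHAPIR heart, against 84.8% in the NC heart. Only 6 of its bases lie outside the exons of the other annotated Rtp4 transcripts. The other listed Rtp4 transcript, ENSMUST00000211349.1, has 0 such bases, so the division between them is uncertain.

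Oasl2 (chromosome 5, 114896936 to 114912234) and Rsad2 (chromosome 12, 26442746 to 26456452) encode enzymes. Oasl2, which in the mouse makes oligoadenylates, was at 11.9 FPKM in the CHAPIR heart, against 4.18 FPKM in the NC heart, 2.84-fold higher with a log2 ratio of 1.31. Rsad2 encodes viperin, which makes a nucleotide that ends viral RNA chains, and was at 13.9 FPKM in the CHAPIR heart, against 8.11 FPKM in the NC heart. At 1.72-fold and a log2 ratio of 0.71 it had the smallest difference of the 10 genes and ranked 558 of 11416. It was the member below 2-fold.

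Genes that work with these enzymes were also read. Cmpk2, which supplies viperin's substrate and lies 12752 bases from Rsad2 on chromosome 12, was at 5.84 FPKM in the CHAPIR heart, against 3.20 FPKM in the NC heart. Its log2 ratio of 0.70 was close to that of Rsad2. Oasl1, 11006 bases from Oasl2 on chromosome 5, was at 2.81 FPKM in the CHAPIR heart, against 0.509 FPKM in the NC heart. Oas1a was at 5.93 FPKM in the CHAPIR heart, against 1.87 FPKM in the NC heart, and Oas2 at 4.38 FPKM in the CHAPIR heart, against 2.25 FPKM in the NC heart.

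Bst2 (chromosome 8, 71534255 to 71537456) and Rtp4 (chromosome 16, 23520291 to 23614222) act at membranes. Bst2 encodes tetherin, which holds budding virus particles at the cell surface, and was at 44.9 FPKM in the CHAPIR heart, against 19.6 FPKM in the NC heart, 2.29-fold higher with a log2 ratio of 1.16. It was the second gene by level in both libraries. Rtp4, a receptor transporter protein gene, was at 9.19 FPKM in the CHAPIR heart, against 3.05 FPKM in the NC heart, 3.01-fold higher with a log2 ratio of 1.33. It was the lowest of the 10 genes in both libraries.

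Put in order of level, the CHAPIR heart ran Ifit3, Bst2, Ifit1, Isg15, Xaf1, Ifit2, Rsad2, Usp18, Oasl2 and Rtp4. The NC heart ran Ifit3, Bst2, Ifit2, Rsad2, Isg15, Ifit1, Oasl2, Usp18, Xaf1 and Rtp4. The levels spanned 9.01-fold in the CHAPIR heart, against 6.58-fold in the NC heart, and with 1 library each no spread tells which neighbours in these orders differ. The 10 levels summed to 293 FPKM in the CHAPIR heart, against 87.5 FPKM in the NC heart.

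**Figure D4:**
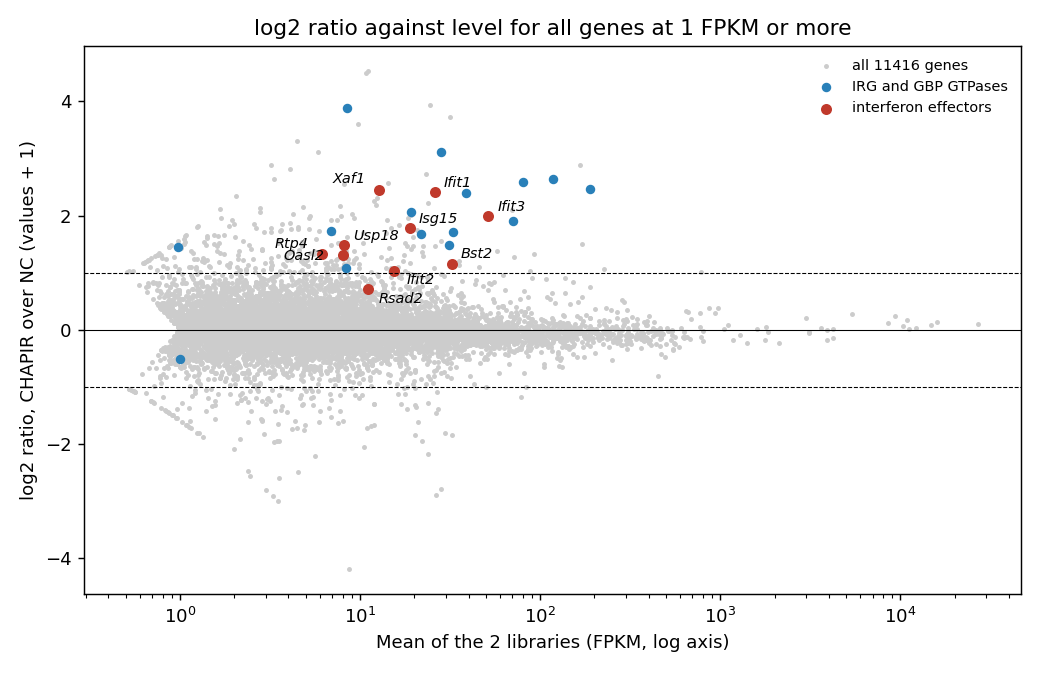
The log2 ratio of CHAPIR over NC (values plus 1) against the mean of both libraries in FPKM (log axis) for 11416 genes in grey, with the 10 effector genes in red and the IRG and GBP GTPases in blue; dashed lines mark 2-fold. The red points lie between 0.71 and 2.44. Of the 15 blue points, 2 (Gbp2b and Gbp9) have a mean below 1 FPKM, and Gbp9 is the blue point below 0.

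The genes next to the 10 effectors on their chromosomes were read as a local comparison. The nearest protein-coding gene with a listed transcript on each side gave 14 distinct genes that are on none of the interferon lists. Of these, 0 were at 1.5-fold in either direction by the log2 ratio of values plus 1, 7 had a positive log2 ratio, and the median was 0.03. Not all are close neighbours, since Masp1 overlaps the Rtp4 gene and Bcl6 lies 350830 bases from it. Their log2 ratios ran from -0.32 for Plvap, beside Bst2, to 0.35 for Klrg1, far from Usp18 at a gap of 999679 bases. Klrg1 was low at 0.538 FPKM in the CHAPIR heart, against 0.209 FPKM in the NC heart, a plain ratio past 1.5-fold without the pseudocount. Agrn, 1936 bases from Isg15, was at 8.41 FPKM in the CHAPIR heart, against 7.90 FPKM in the NC heart.

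Other genes of the pathway were read from lists, at a mean of at least 1 FPKM. Of all 11104 such genes, 6.39% were at least 1.5-fold higher and 3.59% at least 1.5-fold lower. Of the 21 interferon ligand genes, 0 had a listed transcript, and every listed transcript reached 0.5 FPKM in 1 heart or both, so ligand levels below that were not analysed here. Of 6 interferon receptor genes, 0 were at 1.5-fold in either direction by the log2 ratio of values plus 1, and the median was 0.03. Ifnlr1, a receptor chain for interferon lambda, was at 0.856 FPKM in the CHAPIR heart, against 1.56 FPKM in the NC heart, a plain ratio of 0.550 that lies past 1.5-fold without the pseudocount. Ifnar1 was at 7.36 FPKM in the CHAPIR heart, against 6.11 FPKM in the NC heart, and Ifnar2 at 16.7 FPKM in the CHAPIR heart, against 17.7 FPKM in the NC heart.

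The receptor kinases and 2 subunits of ISGF3 were read next. The kinase genes were alike between hearts, with Jak1 at 41.2 FPKM in the CHAPIR heart, against 38.9 FPKM in the NC heart, and Tyk2 at 4.96 FPKM in the CHAPIR heart, against 4.41 FPKM in the NC heart. The subunit genes, which interferon also induces, were higher. Stat2 was at 10.1 FPKM in the CHAPIR heart, against 4.10 FPKM in the NC heart, and Irf9 at 21.8 FPKM in the CHAPIR heart, against 9.95 FPKM in the NC heart.

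Of the sensors and factors that switch on interferon genes, 5 of 13 were at least 1.5-fold higher and 1 lower. The number higher was 8 at a pseudocount of 0.1, 2 at a pseudocount of 5 and 3 with a mean of at least 5 FPKM. Irf7, a factor for interferon alpha genes that interferon itself induces, was at 11.8 FPKM in the CHAPIR heart, against 3.49 FPKM in the NC heart, and Irf1 at 26.7 FPKM in the CHAPIR heart, against 11.3 FPKM in the NC heart. Irf3, which is activated without being induced, was at 3.74 FPKM in the CHAPIR heart, against 6.71 FPKM in the NC heart. Among negative regulators 3 of 8 were at least 1.5-fold higher, of which Usp18 is one of the 10 genes. Socs3 was at 3.91 FPKM in the CHAPIR heart, against 1.83 FPKM in the NC heart, and Socs1 at 1.92 FPKM in the CHAPIR heart, against 0.905 FPKM in the NC heart. Of the negative regulators without Usp18, 2 were past 1.5-fold, against 1 after quantile normalization and 0 either at a pseudocount of 5 or with a mean of at least 5 FPKM.

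Among 34 other antiviral effectors, 21 passed 1.5-fold upward and 0 downward, and their median log2 ratio was 0.66. At a pseudocount of 5, 9 of them passed 1.5-fold upward and the median was 0.46. The highest was Zbp1, a sensor of Z-form nucleic acid, at 12.3 FPKM in the CHAPIR heart, against 2.54 FPKM in the NC heart, followed by Ifi27, at 83.9 FPKM in the CHAPIR heart, against 31.7 FPKM in the NC heart, and Shisa5, at 21.3 FPKM in the CHAPIR heart, against 8.32 FPKM in the NC heart. The lowest were Plscr1, at 5.06 FPKM in the CHAPIR heart, against 5.75 FPKM in the NC heart, and Ifitm1, at 6.08 FPKM in the CHAPIR heart, against 6.77 FPKM in the NC heart. In the IRG and GBP GTPases, which interferon gamma induces strongly and which attack vacuoles of intracellular pathogens, 13 of 13 were at least 1.5-fold higher, with a median log2 ratio of 2.06. Igtp was at 204 FPKM in the CHAPIR heart, against 31.9 FPKM in the NC heart, and Gbp10 at 51.3 FPKM in the CHAPIR heart, against 5.01 FPKM in the NC heart. Gbp4, at 16.7 FPKM in the CHAPIR heart, against 0.208 FPKM in the NC heart, reached 0.5 FPKM only in the CHAPIR heart. Gbp9, just under the mean of 1 FPKM and singled out after its values were seen, was at 0.650 FPKM in the CHAPIR heart, against 1.35 FPKM in the NC heart. GBP, IRG and OAS genes have near copies, among which reads may be split. Of the 10 effectors, 2 had a log2 ratio above that median. These lists were chosen with the data known, and the difference between them was not tested. Which class of interferon the values reflect was not tested either.

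**Figure D5:**
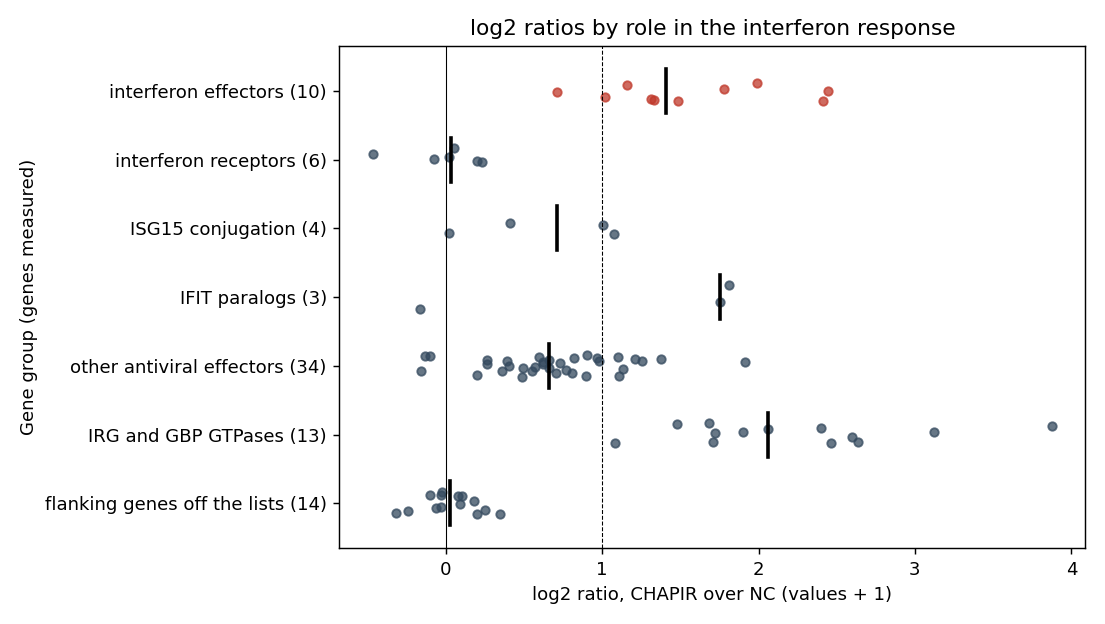
The log2 ratio of CHAPIR over NC (values plus 1) of single genes, grouped by role, with 1 point per gene, a black bar at the median of the group and a dashed line at 2-fold; the effectors are left out of the other groups. Receptors and flanking genes have medians of 0.03, other antiviral effectors 0.66, and the 10 effectors 1.41.

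Markers of immune cells were higher together with these genes. All 12 macrophage markers were higher in the CHAPIR heart, 6 of them at least 1.5-fold, with a summed level of 308 FPKM in the CHAPIR heart, against 184 FPKM in the NC heart. Of 12 monocyte and neutrophil markers 7 were listed and all 7 were higher, summing to 34.8 FPKM in the CHAPIR heart, against 11.6 FPKM in the NC heart. A mean of 1 FPKM was reached by 4 of them, 3 at least 1.5-fold higher. Cxcr2, Camp, Ltf, Elane and Mpo had no listed transcript, and Ngp was listed at 0 in the NC heart. Ngp and Retnlg reached the 0.5 FPKM of every listed transcript only in the CHAPIR heart, so they could only be listed as higher. Of 12 T and NK cell markers 6 were listed, all higher, summing to 9.30 FPKM in the CHAPIR heart, against 3.32 FPKM in the NC heart. These levels were low, with 2 at a mean of 1 FPKM or more, of which 1 was at least 1.5-fold higher. Cd3d, Trac, Cd8a, Ncr1, Klrb1c and Prf1 had no listed transcript, and Gzma was listed at 0 in the NC heart. Gzma and Cd4 likewise reached 0.5 FPKM only in the CHAPIR heart, so their direction was fixed by the listing. The part of immune cells in the levels of the 10 effectors was not tested.

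Plasmacytoid dendritic cells, known as strong makers of type I interferon, were not visible by their defining markers, since Siglech, Ccr9 and Klk1 had no listed transcript. No transcript below 0.5 FPKM in both hearts is listed, so lower levels of these markers were not analysed here, and few such cells could go unseen. Of the 4 listed markers of that list, Bst2 is one of the 10 effectors and Cox6a2 is a muscle gene, and Irf8 and Tcf4 summed to 22.5 FPKM in the CHAPIR heart, against 16.0 FPKM in the NC heart. Of 7 B and plasma cell markers 4 were listed and 3 were higher, and 1 of the 4 reached a mean of 1 FPKM. The 4 summed to 11.9 FPKM in the CHAPIR heart, against 7.16 FPKM in the NC heart. Of the 3, Cd79a and Mzb1 reached 0.5 FPKM only in the CHAPIR heart, so their direction was fixed by the listing. Endothelial markers summed to 263 FPKM in the CHAPIR heart, against 245 FPKM in the NC heart, with 0 of 8 at 1.5-fold. Fibroblast markers summed to 556 FPKM in the CHAPIR heart, against 482 FPKM in the NC heart, with 1 of 6 at least 1.5-fold higher. Smooth muscle and pericyte markers summed to 290 FPKM in the CHAPIR heart, against 327 FPKM in the NC heart, with 1 of 6 at least 1.5-fold lower. Platelet markers, 4 of 5 of them at least 1.5-fold higher, summed to 52.4 FPKM in the CHAPIR heart, against 17.8 FPKM in the NC heart. Gp9 and Itga2b among them reached 0.5 FPKM only in the CHAPIR heart. Adipocyte markers, 6 of 6 measured at least 1.5-fold lower, summed to 9.42 FPKM in the CHAPIR heart, against 79.1 FPKM in the NC heart. Lep, Retn and Ucp1 were listed at 0 in the CHAPIR heart. Those genes and Plin1 reached 0.5 FPKM only in the NC heart, so they could only be listed as lower. The part of these cell types in the levels of the effectors was not tested. In whole-heart RNA, more cells of a type and more RNA per cell cannot be told apart.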

How the data were processed

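Total RNA of mouse heart (2 libraries, 1 per group) was extracted with Trizol and made into dUTP libraries from randomly primed cDNA, per the labels' protocols. The authors deposited transcript levels that are read here as FPKM. The table header does not name the unit. It was inferred, since levels multiplied by annotated length (kb) gave totals of 739668 for CHAPIR and 732588 for NC, which FPKM allows. Cutadapt, HISAT2 2.0.5, StringTie, STAR 2.5.2b and GRCm38 are named without roles in the submitters' processing notes. The annotation used upstream is not stated. Depth is unknown, so no counting interval is given, and an exact 0 can be a failed estimate.

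Transcripts were matched without version to GENCODE M21 (23128 of 23178 matched) and summed per gene with Python 3.11.15 and pandas 2.3.3. The log2 ratio used a pseudocount of 1 FPKM. With 1 library per group there was no test. The ratio and counting code was tested on simulated data. Alternatives were pseudocounts of 0.1 and 5, other filters, the most abundant transcript, centring, quantile normalization and rescaling. The 10 members, the lists, the motifs and the alternatives were chosen with earlier results of these data known. All 10 members are named. From the sensor, regulator, other effector and GTPase lists the rule allowed the 3 highest and 2 lowest ratios, and genes of the remaining pathway lists could be named freely. Flanking genes and cell markers outside that rule were picked after their values were seen. Some genes of the pathway lists are not reported here.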

Additional observations from a re-analysis of the deposited data

How the results depend on the processing

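No paired analysis was possible because there was 1 library in each group. All 82 values of the 10 genes and all 70 of their transcripts under the alternatives were positive. A pseudocount cannot change the sign of a ratio, and filters leave the ratio of a gene as it was. For 7 genes the most abundant transcript is the only listed one, and rescaling used factors of 1.004 for CHAPIR and 0.996 for NC. Many of these values were thus fixed in advance and are no check of the result. Of the 82 and 70 values, 75 and 59 shifted less than 1 SD of similarly abundant genes. At a pseudocount of 0.1 the median log2 ratio of the 10 genes was 1.62, and 507 genes were at least 2-fold higher and 267 lower in place of 294 and 152. At a pseudocount of 5, which shrinks ratios of low values by construction, the median was 1.00, 5 of the 10 reached 2-fold and 9 reached 1.5-fold, and 80 genes were higher and 29 lower. With a mean of at least 5 FPKM, where fewer genes were counted, 140 were higher and 51 lower. With the most abundant transcript only, 611 were higher and 422 lower, and the cause was not tested. The remaining alternatives kept 9 of the 10 genes at 2-fold, among them quantile normalization, where Ifit2 was at 1.003. Of 156 list values, 122 stayed near their main value and 34 moved. The unknown depth sets no stated limit.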

Other observations

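The ISRE core was also read in the promoter windows of the lists. It was present for 10 of 11 IRG and GBP GTPases with a window, 3 of 3 IFIT paralogs and 11 of 29 other antiviral effectors, and for 0 of 5 interferon receptors. It was also present for 11 of 20 interferon ligands, 4 of 7 OAS family and RNase L genes and 2 of 6 negative regulators. Of the sensors and induction factors 3 of 14 held it, and of the receptor kinase and ISGF3 genes 1 of 4. It was present for 0 of 5 ISG15 conjugation genes and not for Cmpk2, and the 10 effectors are left out of these lists. Of the 230 genes with a window at least 2-fold above NC in the CHAPIR heart, 17.0% held the ISRE core, beside 3.85% of all 8967 genes with a window that reached 1 FPKM. For the GAS pattern these shares were 15.7% and 8.14%. The effectors and the listed genes were not left out of the 230, which include Isg15, Bst2, Ifit1 and Ifit3 and GTPases of the list. The 17.0% is thus not separate from the chosen genes. The shares are descriptions and no test was made.

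Mx1, a classical antiviral GTPase gene that is defective in C57BL/6 mice, was at 0.534 FPKM in the CHAPIR heart, against 0.534 FPKM in the NC heart, and was chosen after its values were seen. Oas3 was at 0.611 FPKM in the CHAPIR heart but listed at 0 in the NC heart.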
